A study of Mus musculus with 32 samples.

Results

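Collagens are secreted or membrane-bound proteins built from 3 chains wound into a triple helix, and each chain is the product of its own gene. The collagen chains described here are the genes of the deposited exon count table whose symbol is written as Col, a type number, the letter a and a chain number, as in Col4a1. The rule uses names and no measured value, and 44 of 24411 genes met it. Polyadenylated RNA was sequenced from the brains of 8 mice, 4 in each of 2 lines on a C57BL/6 background. Mice of the first line carried Sall1-CreER:RPL22-HA and those of the second Cx3cr1-CreER:RPL22-HA. CreER is a Cre recombinase that acts after tamoxifen, and the RPL22-HA (RiboTag) allele then adds an HA epitope to a ribosomal protein, so that an anti-HA antibody recovers RNA on tagged ribosomes. Every mouse, including those behind the control precipitates, carried both alleles and was given tamoxifen, 5 mg by gavage on 4 alternate days, at 4 to 6 weeks of age.

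Each brain gave 4 samples. HA is the anti-HA precipitate made directly from brain homogenate, SortIP the anti-HA precipitate from microglia that had been dissociated with collagenase D and sorted by flow cytometry, Sort the sorted microglia without precipitation, and IgG the precipitate of homogenate with an isotype control antibody. This gives 8 groups of 4 libraries, 1 per mouse. Cx3cr1 is active in microglia and other mononuclear phagocytes, whereas Sall1 among macrophages is largely restricted to microglia, and the tag reports any cell in which Cre has acted. For the 8 sorted Cx3cr1 libraries the sample titles and the sample descriptions give opposite assignments to Sort and SortIP. These groups are therefore called titled SortIP and titled Sort, tests on Cx3cr1 sorted cells used the sum of both libraries of each mouse, and SortIP was not tested against Sort in that line.

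Fibrillar collagens (types I, II, III, V, XI, XXIV and XXVII) form the ropes of connective tissue, and type IV collagen forms the network of basement membranes. FACIT collagens such as types IX and XVI attach to fibrils, and type VI forms beaded filaments. The multiplexins XV and XVIII sit at the edge of basement membranes and release bioactive fragments, and types XIII, XVII, XXIII and XXV span the cell membrane. In the brain most collagen lies in the vascular basement membrane and the meninges, and the parenchyma holds little fibrillar collagen.

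The promoters of 4 chains are shown because of how their transcripts were distributed. Col27a1 and Col15a1 carried most collagen counts in sorted microglia, while Col4a1 and Col4a2, which lie head to head, were near 0 there. The windows run from 250 bases before to 50 bases after the transcription start (RefSeq, GRCm38.p6; 35 of the 44 chains had a window) and are written 5′ to 3′ on the strand of the gene. Capitals mark CCAAT (or ATTGG) and GGGCGG (or CCGCCC), the core letters of the CCAAT box and the GC box. They lie at chr4:63215162-63215461 (plus strand), chr4:47207762-47208061 (plus), chr8:11312777-11313076 (minus) and chr8:11312555-11312854 (plus).
Col27a1: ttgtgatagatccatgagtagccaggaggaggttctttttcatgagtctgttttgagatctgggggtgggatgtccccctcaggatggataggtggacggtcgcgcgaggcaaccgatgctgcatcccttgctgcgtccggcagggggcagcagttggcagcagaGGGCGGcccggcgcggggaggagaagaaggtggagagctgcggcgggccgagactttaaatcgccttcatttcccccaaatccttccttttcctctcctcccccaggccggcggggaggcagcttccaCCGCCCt
Col15a1: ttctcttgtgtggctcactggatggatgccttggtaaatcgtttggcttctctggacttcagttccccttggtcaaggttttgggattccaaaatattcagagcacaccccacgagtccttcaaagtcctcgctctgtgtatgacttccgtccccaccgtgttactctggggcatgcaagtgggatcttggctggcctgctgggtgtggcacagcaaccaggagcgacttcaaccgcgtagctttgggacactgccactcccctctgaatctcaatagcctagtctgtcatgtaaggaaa
Col4a1: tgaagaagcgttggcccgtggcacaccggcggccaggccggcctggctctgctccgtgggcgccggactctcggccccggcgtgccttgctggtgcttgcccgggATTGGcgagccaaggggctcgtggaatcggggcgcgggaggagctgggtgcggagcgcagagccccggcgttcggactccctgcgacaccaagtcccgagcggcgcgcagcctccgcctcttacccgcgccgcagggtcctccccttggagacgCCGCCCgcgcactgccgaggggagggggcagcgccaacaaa
Col4a2: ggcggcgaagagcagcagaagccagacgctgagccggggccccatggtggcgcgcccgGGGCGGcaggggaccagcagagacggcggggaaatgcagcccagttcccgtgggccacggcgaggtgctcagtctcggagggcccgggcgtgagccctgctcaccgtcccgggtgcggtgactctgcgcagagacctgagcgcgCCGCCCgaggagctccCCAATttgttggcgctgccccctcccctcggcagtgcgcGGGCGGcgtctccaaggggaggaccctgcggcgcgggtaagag
The Col4a1 and Col4a2 windows share 78 bases, since their start sites lie 21 bases apart on opposite strands. Both hold CCAAT, with 1 match each, and GGGCGG, with 1 match in the Col4a1 window and 3 in that of Col4a2. The Col27a1 window holds GGGCGG 2 times and no CCAAT, and the Col15a1 window holds neither. Both strands were searched, and a chain was counted if any of its windows held the motif. CCAAT occurred in 13 of 35 chains against 37.4% of 32851 windows of all genes, and GGGCGG in 22 of 35 chains against 35.7%. TATAAA occurred in 5 of 35 chains against 13.6%, and GAGGAAGT, a core bound by the myeloid factor PU.1, in 0 of 35 against 3.20%. The shares of all genes are per single window, so they are not the same measure as the counts of chains. No motif contains another, and matches within a window do not overlap. The GGGCGG match of Col4a1 lies in the bases shared with Col4a2 and is 1 of its 3 matches, read on the other strand. The windows are 61.7% G and C for Col27a1, 52.3% for Col15a1, 74.0% for Col4a1 and 73.7% for Col4a2, with a median of 52.7% over all windows.

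Library totals ran from 249881 to 4047465 counts. The Cx3cr1 HA libraries (286418 to 574671) were shallower than those of Sall1 HA (1894943 to 3027342), and 1 count was worth between 0.247 and 4.00 counts per 1000000 counts of the library (CPM) depending on the library. The sorted cells carried microglial transcripts, with 12 microglial markers at 5.82% to 7.66% of counts in the 4 sorted groups. The same list took 0.506% of counts in Sall1 HA against 0.0893% in Sall1 IgG, and 7.45% in Cx3cr1 HA against 0.113% in Cx3cr1 IgG. In these bulk samples, fewer cells of a type and less RNA per cell cannot be told apart. Means are given with their SD over n = 4 mice, CPM are per library total, fold changes are log2 values ± SE, and adjusted p values come from edgeR's quasi-likelihood test over all genes.

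All 44 chains together took 0.0235% of counts in Sall1 HA, 0.0369% in Sall1 SortIP, 0.0553% in Sall1 Sort and 0.0257% in Sall1 IgG. In the Cx3cr1 line the shares were 0.0161% in HA, 0.0688% in titled SortIP, 0.0499% in titled Sort and 0.0207% in IgG. The chains behind these totals differed. In Sall1 Sort 22 chains had a count in any library and 6 had a count in all 4, and Col27a1 alone made up 83.9% ± 1.09 of collagen counts. In Sall1 IgG, the control precipitate of whole homogenate, 42 chains had a count and 29 had a count in all 4 libraries, while Col27a1 made up 6.70% ± 1.04. In Sall1 HA 40 chains had a count and Col27a1 made up 1.70% ± 0.593, whereas in Cx3cr1 HA 25 had a count and Col27a1 made up 28.7% ± 10.7. The number of chains with a count also depends on depth, so it is not comparable between these groups. Group totals were 9687871 counts in Sall1 HA, 1623862 in Cx3cr1 HA, 4537443 in Sall1 Sort and 9506033 in Sall1 IgG. Col10a1 and Col6a6 had 0 counts in all 32 libraries. A chain at 0 in a group may still lie at up to 0.661 CPM in Sall1 Sort, 0.310 in Sall1 HA and 1.85 in Cx3cr1 HA (3 counts of the group's total, counting error only).

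**Figure D1:**
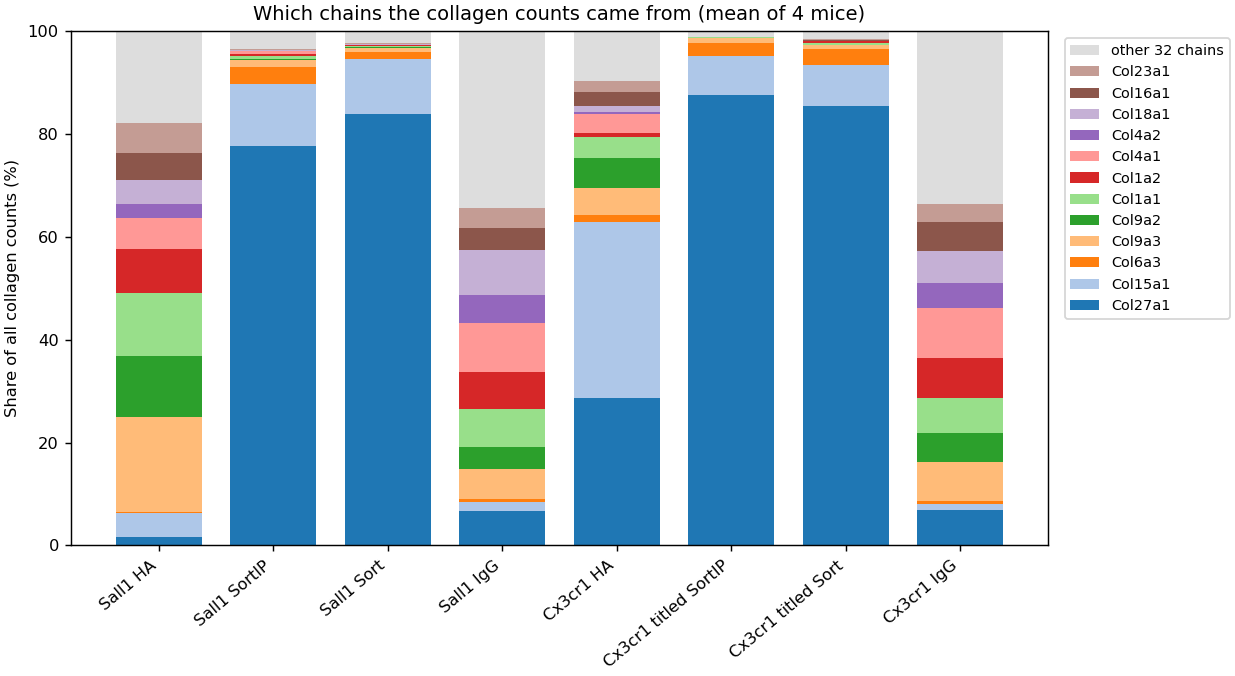
Share of all collagen counts (vertical axis, %, mean of 4 mice) that came from each of 12 chains and from the other 32, in the 8 groups. Col27a1 fills most of each sorted bar, 77.7% to 87.6%, and 1.70% of the Sall1 HA bar, where Col9a3 is the largest at 18.5%.

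Col27a1 encodes the single chain of type XXVII collagen, a fibrillar collagen best known from cartilage (chr4:62876446-62996024 on the plus strand of mm9, the build of the deposited table). It was the leading collagen of sorted microglia in both lines. Sall1 SortIP libraries had 228, 289, 304 and 331 CPM and Sall1 Sort libraries 371, 419, 492 and 576 CPM, against 13.7, 15.6, 16.4 and 21.5 CPM in Sall1 IgG. Cx3cr1 titled SortIP libraries had 469.9, 603, 663 and 675 CPM and titled Sort libraries 376, 383, 425 and 526 CPM, against 8.52, 14.98, 16.1 and 17.7 CPM in Cx3cr1 IgG. No sorted library of either line overlapped the IgG libraries. Col27a1 was higher by 4.73 ± 0.22 in Sall1 Sort than in Sall1 IgG (adjusted p = 5.31e-13) and by 5.14 ± 0.23 in the Cx3cr1 sorted sums than in Cx3cr1 IgG (adjusted p = 9.92e-10). Per length, its mean level in Sall1 Sort was 61.3 RPKM (CPM per kilobase of transcript), where the next chain, Col15a1, had 11.1 RPKM. A miRNA gene within its span, Mir455, had 0 counts in every library.

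The direct precipitates did not follow the sorted cells for Col27a1. Sall1 HA libraries had 2.64, 3.00, 4.95 and 5.35 CPM, which all lie below the 4 Sall1 IgG libraries. The fold change was -1.64 ± 0.31 (adjusted p = 0.000128), but -0.25 ± 0.34 and not called (adjusted p = 0.535) with an adjustment for transcript length and the mouse as a block. Against Sall1 SortIP the fold change was -5.98 ± 0.25 (adjusted p = 8.95e-22). Cx3cr1 HA libraries had 24.5, 40.02, 50.5 and 69.8 CPM, all above Cx3cr1 IgG, by 2.06 ± 0.34 (adjusted p = 7.29e-05), and all below the sorted sums of that line (-3.41 ± 0.22, adjusted p = 8.19e-12). The difference in HA over IgG between the Sall1 and the Cx3cr1 line was -3.74 ± 0.45 (adjusted p = 5.73e-07). Microglial markers moved in the same comparisons. Of 12, 11 were higher and 1 lower in Sall1 HA than in Sall1 IgG, with a summed level of 0.454% to 0.578% against 0.0800% to 0.106%, and 12 were higher in Cx3cr1 HA than in Cx3cr1 IgG, at 6.82% to 8.08% against 0.0987% to 0.129%. Their part in the result was not tested. Over all genes, 71.3% were called in the Sall1 comparison (35.2% higher, 36.1% lower) and 64.5% in the Cx3cr1 comparison (28.6% higher, 36.0% lower).

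Between precipitated and total RNA of sorted Sall1 microglia, Col27a1 was lower by a small amount in SortIP, which lay below Sort in all 4 libraries (-0.53 ± 0.15, adjusted p = 0.0298). It was the 1 chain called of 2 tested, against 10.5% of all genes (5.45% higher and 5.08% lower), while Col15a1 was not called (-0.22 ± 0.21). Leaving out SortIP of mouse 7 or 21, or Sort of mouse 17 or 21, ended the call (adjusted p = 0.0719 to 0.110), as did the length adjustment with the mouse block (-0.28, 0.188) and a fit of all 8 groups (-0.56, 0.0780). In the Cx3cr1 line the libraries titled SortIP had the higher mean, 603 ± 94.1 CPM against 428 ± 69.3 CPM in those titled Sort, with overlapping ranges. By the sample descriptions these groups change places, and the order is then that of the Sall1 line.

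Col15a1 encodes the chain of type XV collagen, a multiplexin of basement membrane zones (chr4:47220884-47326037, plus strand, mm9). It was the next collagen of sorted microglia and, unlike Col27a1, was above IgG in the HA precipitates of both lines. Sall1 HA libraries had 9.46, 10.6, 11.6 and 12.2 CPM, against 2.68, 4.53, 5.19 and 5.68 CPM in Sall1 IgG (1.75 ± 0.32, adjusted p = 9.33e-05). Cx3cr1 HA libraries had 27.9, 52.00, 59.7 and 76.6 CPM, against 1.21, 2.69, 2.73 and 3.04 CPM in Cx3cr1 IgG (4.88 ± 0.39, adjusted p = 2.63e-08). The groups did not overlap in either line. The rise in Sall1 HA was smaller, with a difference between lines of -3.20 ± 0.51 (adjusted p = 2.29e-05). Sorted cells had 44.7 ± 9.97 CPM in Sall1 SortIP, 58.5 ± 8.63 in Sall1 Sort, 52.5 ± 11.8 in Cx3cr1 titled SortIP and 39.4 ± 9.93 in titled Sort. Cx3cr1 HA and the Cx3cr1 sorted sums overlapped (0.42 ± 0.24, adjusted p = 0.124), and the difference was called without Cx3cr1 HA of mouse 4 or the sorted cells of mouse 1 (0.0248 to 0.0446). It was also called higher against the sorted libraries described as SortIP alone (0.64, adjusted p = 0.0255), and with the length adjustment and mouse block (1.05 ± 0.24, 4.75e-05). Sall1 HA lay below Sall1 SortIP (-1.90 ± 0.26, adjusted p = 3.85e-08).

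The other multiplexin, Col18a1, the source of endostatin, had 6.61, 9.46, 11.6 and 15.8 CPM in the Sall1 HA libraries against 10.7, 15.6, 27.4 and 40.2 in Sall1 IgG. These groups overlapped and the difference was not called (-0.75 ± 0.37, adjusted p = 0.0777), although it was called lower without TMM scaling (-1.17, 0.00905) and without Sall1 HA of mouse 7 or Sall1 IgG of mouse 17 (0.0123 to 0.0359). It had 2 counts in all of Sall1 Sort, against 225 in Sall1 IgG (a fitted -5.56 ± 0.75, adjusted p = 3.07e-06), and both were in mouse 9 (-8.48 without it).

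**Figure D2:**
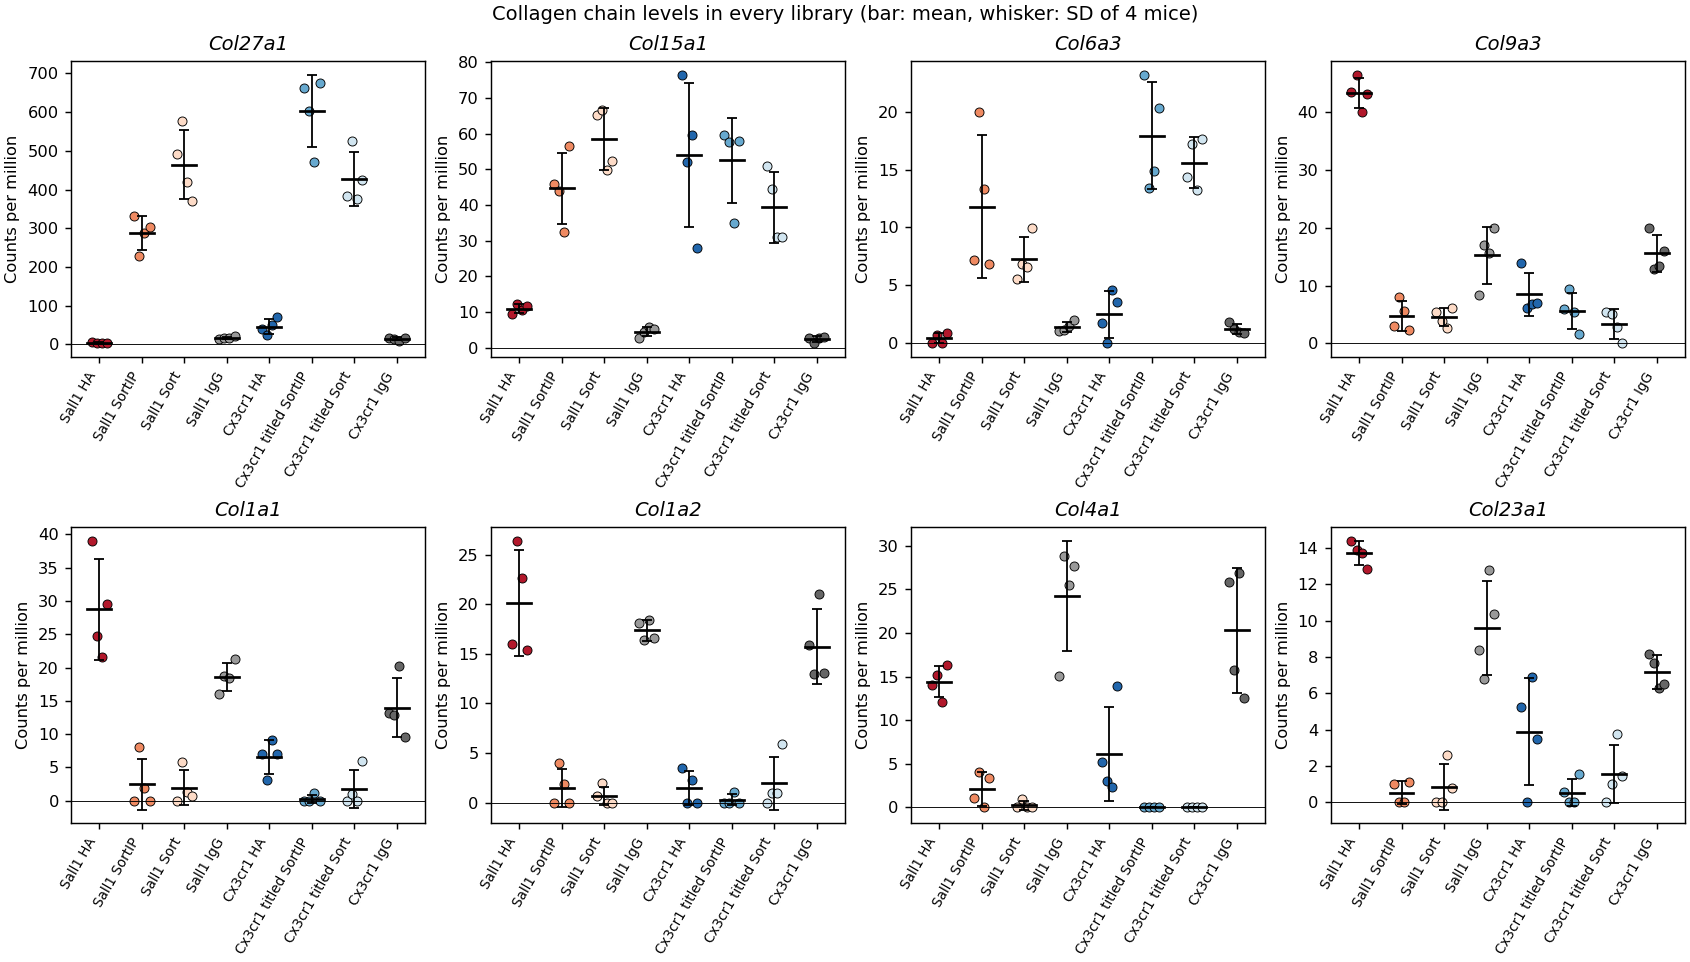
Level in CPM (vertical axes, linear, own scale per panel) of 8 chains in each library of the 8 groups. Points are mice, bars means and whiskers the SD. Col27a1 and Col6a3 are highest in the sorted groups, Col15a1 is high there and in Cx3cr1 HA, Col9a3, Col1a1 and Col23a1 are highest in Sall1 HA, and Col4a1 is highest in the IgG groups.

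Col6a3 encodes the largest of the classical type VI chains (chr1:92663435-92740548, minus strand, mm9). It was the only other chain called higher in sorted microglia than in IgG, and in that comparison it passed the filter on low counts in the Cx3cr1 line alone. The Cx3cr1 sorted sums had 14.3, 15.6, 19.4 and 20.2 CPM, against 0.868, 0.897, 1.21 and 1.82 CPM in Cx3cr1 IgG (3.72 ± 0.33, adjusted p = 4.32e-07). Sall1 Sort had 5.50, 6.57, 6.85 and 10.00 CPM against 1.00, 1.13, 1.42 and 1.98 CPM in Sall1 IgG, which do not overlap and were not tested. The Sall1 sorted sums, at 6.16, 8.70, 9.32 and 9.43 CPM, lay below all 4 Cx3cr1 sums (-1.06 ± 0.24, adjusted p = 0.0232). This was the 1 call among 3 chains tested between the sorted cells of the lines, where 2.67% of all genes were called (1.62% higher and 1.05% lower), and it ended without Sall1 mouse 17 or Cx3cr1 mouse 1 or 4 (0.0639 to 0.112).

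The chains with which Col6a3 assembles were not found with it. Col6a1 and Col6a2 had 0 counts in the Cx3cr1 sorted libraries against 63 and 38 counts in Cx3cr1 IgG, which makes them at least 20.8-fold and 12.6-fold lower (floor of 3 counts over the group). In Sall1 HA, Col6a3 had 4 counts in all. Col6a1 had 1.58, 2.88, 2.97 and 5.57 CPM in the Sall1 HA libraries against 1.42, 4.68, 15.3 and 16.6 CPM in Sall1 IgG. The groups overlapped, Col6a1 was called lower (-1.25 ± 0.50, adjusted p = 0.0334), and the call ended without Sall1 HA of mouse 7, 17 or 21, or Sall1 IgG of mouse 9 or 21 (0.0805 to 0.128), and with the length adjustment and mouse block (-0.65 ± 0.40, 0.158).

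Type IX collagen was the leading collagen of the Sall1 HA precipitate. Col9a3 and Col9a2, with Col9a1, encode its 3 chains, which coat type II fibrils in cartilage. Col9a3 (chr2:180332927-180356890, plus strand, mm9) had 40.1, 43.3, 43.6 and 46.6 CPM in the Sall1 HA libraries, against 8.36, 15.6, 16.99 and 20.01 CPM in Sall1 IgG (1.93 ± 0.24, adjusted p = 1.40e-06). Col9a2 (chr4:120712171-120727930, plus strand) had 21.1, 24.4, 27.1 and 38.00 CPM in the Sall1 HA libraries, against 5.68, 9.03, 10.8 and 17.5 CPM in Sall1 IgG (1.64 ± 0.28, adjusted p = 5.19e-05). All Sall1 HA libraries lay above all Sall1 IgG libraries for both. In Cx3cr1 HA, Col9a3 had 6.12, 6.88, 6.98 and 13.9 CPM against 12.95, 13.5, 16.1 and 19.99 CPM in Cx3cr1 IgG. Col9a2 had 4.59, 6.98, 12.2 and 12.2 CPM against 10.3, 10.5, 11.7 and 14.8 CPM. Neither was called there (-0.38 ± 0.40 for Col9a3 and 0.034 ± 0.41 for Col9a2). The differences between the lines were 2.26 ± 0.44 for Col9a3 (adjusted p = 0.000241) and 1.59 ± 0.50 for Col9a2 (adjusted p = 0.0163, and 0.0525 without Cx3cr1 HA of mouse 3). Col9a1 had 18 counts over all 32 libraries and was not tested. Per length, Col9a3 and Col9a2 had 15.4 and 10.2 RPKM in Sall1 HA, ahead of Col1a1 at 4.89 RPKM. Tcfl5, a gene that overlaps the Col9a3 span on the other strand, had 4 counts in Sall1 HA and 8 in Sall1 IgG.

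Type IX was scarce in sorted cells. Col9a3 had 10 counts in Sall1 SortIP and 22 in Sall1 Sort, and was lower than IgG in Sall1 Sort (-1.67 ± 0.38, adjusted p = 0.000558) and in the Cx3cr1 sorted sums (-1.83 ± 0.38, adjusted p = 0.000694). Sall1 HA exceeded Sall1 SortIP by 3.61 ± 0.36 for Col9a3 (adjusted p = 1.91e-11) and by a fitted 5.17 ± 0.59 for Col9a2, which had 2 counts in Sall1 SortIP, both in mouse 17 (8.51 without it). Among other FACIT collagens, Col16a1 had 9.42, 10.3, 13.2 and 16.4 CPM in the Sall1 HA libraries against 5.02, 9.94, 11.3 and 19.3 in Sall1 IgG, with overlap (0.48 ± 0.34, adjusted p = 0.218, and 0.0162 without Sall1 IgG of mouse 9). It was not called in Cx3cr1 HA against Cx3cr1 IgG either (-0.63 ± 0.53).

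Col19a1, which in mice is made by some interneurons, had 0, 0.411, 0.528 and 0.661 CPM in the Sall1 HA libraries against 6.42, 8.03, 8.52 and 13.6 CPM in Sall1 IgG (-3.89 ± 0.56, adjusted p = 7.41e-06). It passed the filter through the Sall1 IgG libraries, where it was high, so it had to differ. Col19a1 had 0 counts in Cx3cr1 HA against 61 in Cx3cr1 IgG, which makes it at least 3.59-fold lower. Neuronal markers fell in the same precipitates, 9 of 10 with 1 higher in Sall1 HA (summed level 0.168% to 0.204% against 0.697% to 0.890%) and 10 of 10 in Cx3cr1 HA (0.0911% to 0.154% against 0.774% to 0.954%). Their part was not tested. Over all genes, 36.1% were called lower in the Sall1 comparison and 36.0% in the Cx3cr1 comparison.

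Type I collagen, the main fibrillar collagen of connective tissue, rose in Sall1 HA and was near 0 in sorted cells. Col1a1 (chr11:94797538-94814356, plus strand, mm9) had 21.6, 24.8, 29.6 and 39.1 CPM in the Sall1 HA libraries, against 16.1, 18.5, 18.7 and 21.2 CPM in Sall1 IgG, without overlap (1.03 ± 0.23, adjusted p = 0.000609). The rise was 0.62 without TMM scaling and 2.05 with a length adjustment and the mouse as a block, both called. Col1a2 (chr6:4455697-4491543, plus strand) had 15.4, 16.04, 22.7 and 26.4 CPM in the Sall1 HA libraries, against 16.4, 16.6, 18.1 and 18.5 CPM in Sall1 IgG. Its groups overlapped and the call was near the threshold (0.64 ± 0.25, adjusted p = 0.0277). It ended without Sall1 HA of mouse 7 or 21 or Sall1 IgG of mouse 9 or 21 (0.0600 to 0.0999), and without TMM scaling (0.22, adjusted p = 0.422). In sorted cells Col1a1 had 8 counts in Sall1 Sort and 7 in the Cx3cr1 sorted sums, and Col1a2 had 3 and 8.

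In Cx3cr1 HA, Col1a1 had 3.06, 6.96, 6.98 and 9.18 CPM, all below the Cx3cr1 IgG libraries at 9.55, 12.95, 13.2 and 20.2 CPM. The scaled difference was not called (-0.64 ± 0.45, adjusted p = 0.222), and without TMM scaling it was (-1.06, adjusted p = 0.0448). With the length adjustment and mouse block it turned to 0.23 ± 0.52 and was not called (0.725). Col1a2 had 3 counts in all of Cx3cr1 HA against 144 in Cx3cr1 IgG and was called lower (-2.66 ± 0.63, adjusted p = 0.00164). The lines differed for both, by 1.63 ± 0.47 for Col1a1 (adjusted p = 0.00967) and 3.25 ± 0.65 for Col1a2 (adjusted p = 0.000353).

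Markers of other cell types moved with the chains that were higher in Sall1 HA. In Sall1 HA against Sall1 IgG 71.3% of all genes were called, 35.2% higher and 36.1% lower. Of 10 fibroblast and leptomeningeal markers, 7 were tested in Sall1 HA against Sall1 IgG, with 6 higher and 0 lower, a summed level of 0.154% to 0.198% against 0.0258% to 0.0336%, and Ogn at 0 in Sall1 HA. Of 7 markers of oligodendrocyte precursors, 5 were higher (0.175% to 0.245% against 0.0356% to 0.0464%), as were 8 of 8 oligodendrocyte markers (0.995% to 1.22% against 0.431% to 0.554%) and 7 of 10 astrocyte markers, with 1 lower (0.816% to 1.06% against 0.339% to 0.359%). All 6 ependymal markers were higher (0.0213% to 0.0288% against 0.00348% to 0.0108%), and of 6 choroid plexus markers tested of 7, 3 were higher and 2 lower (0.269% to 0.403% against 0.0794% to 0.148%). Vascular markers were counted in a pair of lists. All 7 endothelial markers tested of 9 were lower (0.00153% to 0.00268% against 0.0203% to 0.0509%), with Tek and Slco1a4 at 0 in Sall1 HA, while of 7 mural markers tested of 8, 3 were higher and 4 lower (0.0376% to 0.0620% against 0.0228% to 0.0401%). In Cx3cr1 HA the fibroblast list was at 0.0126% to 0.0187% against 0.0209% to 0.0275% in Cx3cr1 IgG, with 3 of 6 tested lower and Lum, Dpt and Ogn at 0. Among all genes 36.0% were called lower in Cx3cr1 HA against Cx3cr1 IgG. The part of these lists in the collagen results was not tested.

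Type IV collagen was not called in Sall1 HA against Sall1 IgG. Col4a1 (chr8:11198423-11312826, minus strand, mm9) and Col4a2 (chr8:11312805-11449287, plus strand) encode the chains of the common basement membrane trimer. Col4a1 had 12.1, 13.98, 15.2 and 16.3 CPM in the Sall1 HA libraries, against 15.1, 25.6, 27.7 and 28.9 CPM in Sall1 IgG. The groups overlapped and the difference was not called (-0.32 ± 0.25, adjusted p = 0.254), but it was called lower without TMM scaling (-0.74, 0.0146). Col4a2 had 3.30, 5.80, 7.40 and 8.57 CPM in the Sall1 HA libraries against 6.36, 12.8, 16.4 and 22.7 CPM in Sall1 IgG. Col4a2 was not called (-0.84 ± 0.38, adjusted p = 0.0537), but was called lower without scaling (0.00676) and without Sall1 HA of mouse 9 or Sall1 IgG of mouse 17 (0.00718 to 0.0386). With the length adjustment and mouse block both values turned positive, Col4a1 to 0.87 ± 0.25, called higher (adjusted p = 0.00364), and Col4a2 to 0.36 ± 0.35, not called (0.378).

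In Cx3cr1 HA both type IV chains were called lower. Col4a1 had 2.29, 3.06, 5.22 and 13.97 CPM there against 12.6, 15.8, 25.9 and 26.9 CPM in Cx3cr1 IgG (-1.44 ± 0.52, adjusted p = 0.0245), but the groups overlapped and the call ended without Cx3cr1 HA of mouse 1, 2 or 3 (0.0742 to 0.100) and with the length adjustment and mouse block (-0.48 ± 0.56, 0.468). Col4a2 had 1 count in Cx3cr1 HA against 93 in Cx3cr1 IgG (a fitted -3.49 ± 0.81, adjusted p = 0.00147, and -6.86 without mouse 1, which held the count). The difference between lines was not called for Col4a1 (1.07 ± 0.57, adjusted p = 0.161, and 0.0457 without Cx3cr1 HA of mouse 4) or for Col4a2 (2.67 ± 1.11, adjusted p = 0.0706, and 0.0382 to 0.0458 without Sall1 HA of mouse 21, Sall1 IgG of mouse 9 or Cx3cr1 HA of mouse 1).

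Sorted microglia held almost no type IV message. Col4a1 had 0 counts in the 8 sorted Cx3cr1 libraries against 185 in Cx3cr1 IgG, at least 61.2-fold lower, and 1 count in Sall1 Sort against 226 in Sall1 IgG. In Sall1 SortIP it had 5 counts, and Sall1 HA was higher by 3.02 ± 0.51 (adjusted p = 1.94e-06). Col4a2 had 1 count in the Cx3cr1 sorted libraries and 2 in Sall1 Sort. The other chains of the class, Col4a3 to Col4a6, had 4 to 31 counts each over all 32 libraries and were tested nowhere. The spans of Col4a1 and Col4a2 overlap at their starts, and with a strand setting not given in the sources used here, reads from the shared bases cannot be assigned with certainty.

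Among the membrane collagens, Col23a1 (chr11:51103422-51397427, plus strand, mm9) had 12.9, 13.7, 13.9 and 14.4 CPM in the Sall1 HA libraries, against 6.80, 8.36, 10.4 and 12.8 CPM in Sall1 IgG. The groups do not overlap and the rise was called (0.98 ± 0.27, adjusted p = 0.00308), but not without TMM scaling (0.56, adjusted p = 0.0693). In Cx3cr1 HA it had 7 counts and was not tested against IgG. Col25a1, a neuronal chain found in human amyloid plaques, had 1 count in Sall1 HA against 69 in Sall1 IgG, and 0 in Cx3cr1 HA against 68 in Cx3cr1 IgG, at least 4.00-fold lower. It passed the filter in neither HA against IgG comparison.

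Col26a1 had 3.86, 4.52, 5.28 and 5.62 CPM in the Sall1 HA libraries and 1.34, 3.96, 4.69 and 5.68 CPM in Sall1 IgG, with overlap (0.84 ± 0.41, adjusted p = 0.0752). In the other line it had 0 counts in Cx3cr1 HA against 23 in Cx3cr1 IgG. Its difference between lines was called (5.96 ± 2.07, adjusted p = 0.0311), but the fitted size rests on a group at 0. The short-chain collagens Col8a1 and Col8a2 averaged 1.44 and 1.20 CPM in the Sall1 HA libraries against 5.42 and 2.88 CPM in Sall1 IgG, and Col7a1, the anchoring fibril chain of skin, averaged 0.545 CPM in Sall1 HA against 3.21 in Sall1 IgG. None of the 3 passed the filter there.

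In all, 20 of the 44 chains were tested in some comparison and 24 in none, each of these 24 with 0 to 94 counts over the 32 libraries. Col5a1, Col11a2, Col6a2, Col8a1 and Col25a1 were tested but never called in the fits per comparison with the filter and TMM scaling. This does not cover the alternative settings, and without the filter more chains were called. The highest group mean among the untested chains was 4.06 ± 1.66 CPM, for the membrane collagen Col13a1 in Sall1 HA, against 3.30 ± 2.56 CPM in Sall1 IgG. The fibrillar Col3a1, the partner of type I collagen in soft tissue, had 12 counts in Sall1 HA against 28 in Sall1 IgG, and Col5a2, which seeds fibrils, had 2 against 22. Col14a1, a FACIT chain, had 7 counts in Sall1 SortIP and 3 in Sall1 Sort against 3 in Sall1 IgG, and 6 in titled SortIP and 4 in titled Sort against 1 in Cx3cr1 IgG.

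In Sall1 HA against Sall1 IgG 15 chains passed the filter, of which 6 were called higher (Col9a3, Col9a2, Col15a1, Col1a1, Col23a1 and Col1a2) and 3 lower (Col27a1, Col19a1 and Col6a1). Of all genes tested, 71.3% were called, 35.2% higher and 36.1% lower, so 9 of 15 is near the background. Col27a1 and Col19a1 passed the filter through the Sall1 IgG libraries, where they were high, so the number called lower is no result about collagens. Median fold changes were 0.48 over the chains tested and -0.03 over all genes. Without TMM scaling the split was 4 higher and 6 lower, while the median of all genes stood at -0.44. Of 11545 genes tested, 2869 were called higher and 5427 lower in that setting. In Cx3cr1 HA against Cx3cr1 IgG 9 chains were tested, with Col15a1 and Col27a1 called higher and Col1a2, Col4a2 and Col4a1 lower, where 64.5% of all genes were called, 28.6% higher and 36.0% lower. Medians were -0.63 over these chains and -0.28 over all genes, or -0.70 over all genes without scaling. The chains called lower in this comparison passed the filter through the Cx3cr1 IgG libraries, where they were high. Their number is therefore no result about collagens.

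The difference in HA over IgG between lines was called for 7 of 19 chains, 5 higher and 2 lower in the Sall1 line, against 32.2% of all genes (18.5% higher and 13.7% lower), with medians of 1.59 and 0.15. Col8a1, Col19a1, Col25a1 and Col26a1 had 0 counts in Cx3cr1 HA and passed the filter through other groups. Their fitted differences, all positive, enter the median, so neither count nor median is a result about collagens. Sall1 HA against Cx3cr1 HA gave 6 higher and 2 lower of 9, against 52.9% of all genes (27.2% higher and 25.7% lower). Most of these chains passed the filter only through the HA group where they were high, so this count is no result about collagens. Between the IgG precipitates of the 2 lines edgeR called 0 of 16 chains, and 0 had an unadjusted p under 0.05. DESeq2 called 0 as well, and edgeR called 0.00863% of all genes, 0.00863% higher and 0.0% lower.

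**Figure D3:**
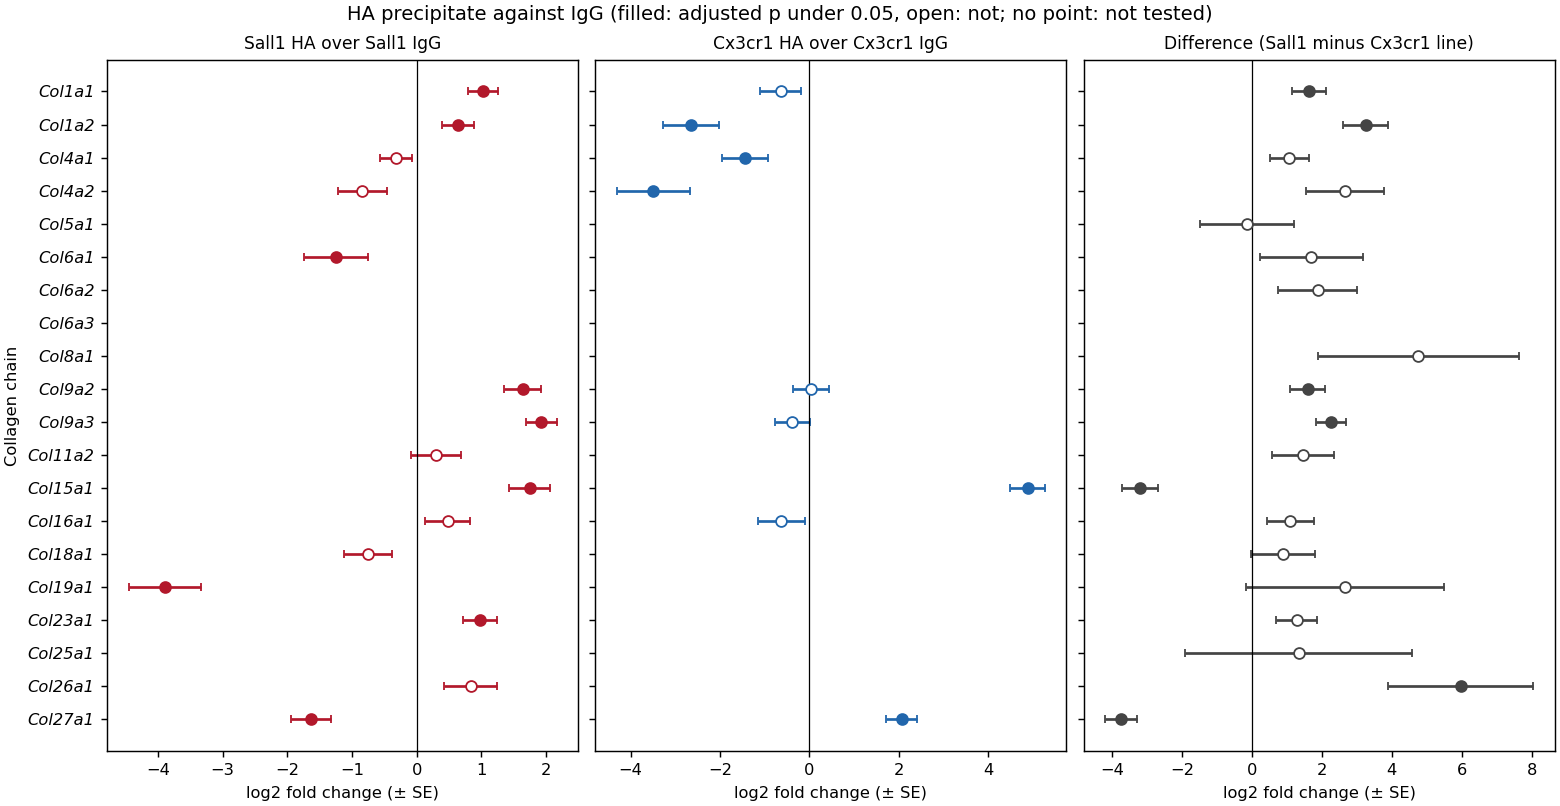
log2 fold change with SE (horizontal axes, own scale per panel) of each tested chain for Sall1 HA over Sall1 IgG, Cx3cr1 HA over Cx3cr1 IgG and the difference between the lines. Filled points are called. Col27a1 lies left of 0 in the Sall1 panel and right of 0 in the Cx3cr1 panel, and Col15a1 lies right of 0 in both.

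In the comparisons with sorted cells, chains passed the filter mostly through the group where they were high, so they had to differ. Sall1 Sort against Sall1 IgG gave 2 higher and 5 lower of 7 chains, against 78.2% of all genes (37.1% higher and 41.1% lower). The Cx3cr1 sorted sums against Cx3cr1 IgG gave 3 higher and 9 lower of 12, against 77.4% (35.5% and 41.8%). Sall1 HA against Sall1 SortIP gave 7 higher and 2 lower of 9, against 80.2% (42.4% and 37.8%), and Cx3cr1 HA against the Cx3cr1 sorted sums gave 0 higher and 2 lower of 3, against 69.6% (30.7% and 39.0%). The chains called lower in sorted cells than in IgG were Col1a1, Col1a2, Col4a1, Col9a3 and Col18a1 in both lines, and Col4a2, Col9a2, Col16a1 and Col23a1 in the Cx3cr1 line, where alone these 4 were tested.

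**Figure D4:**
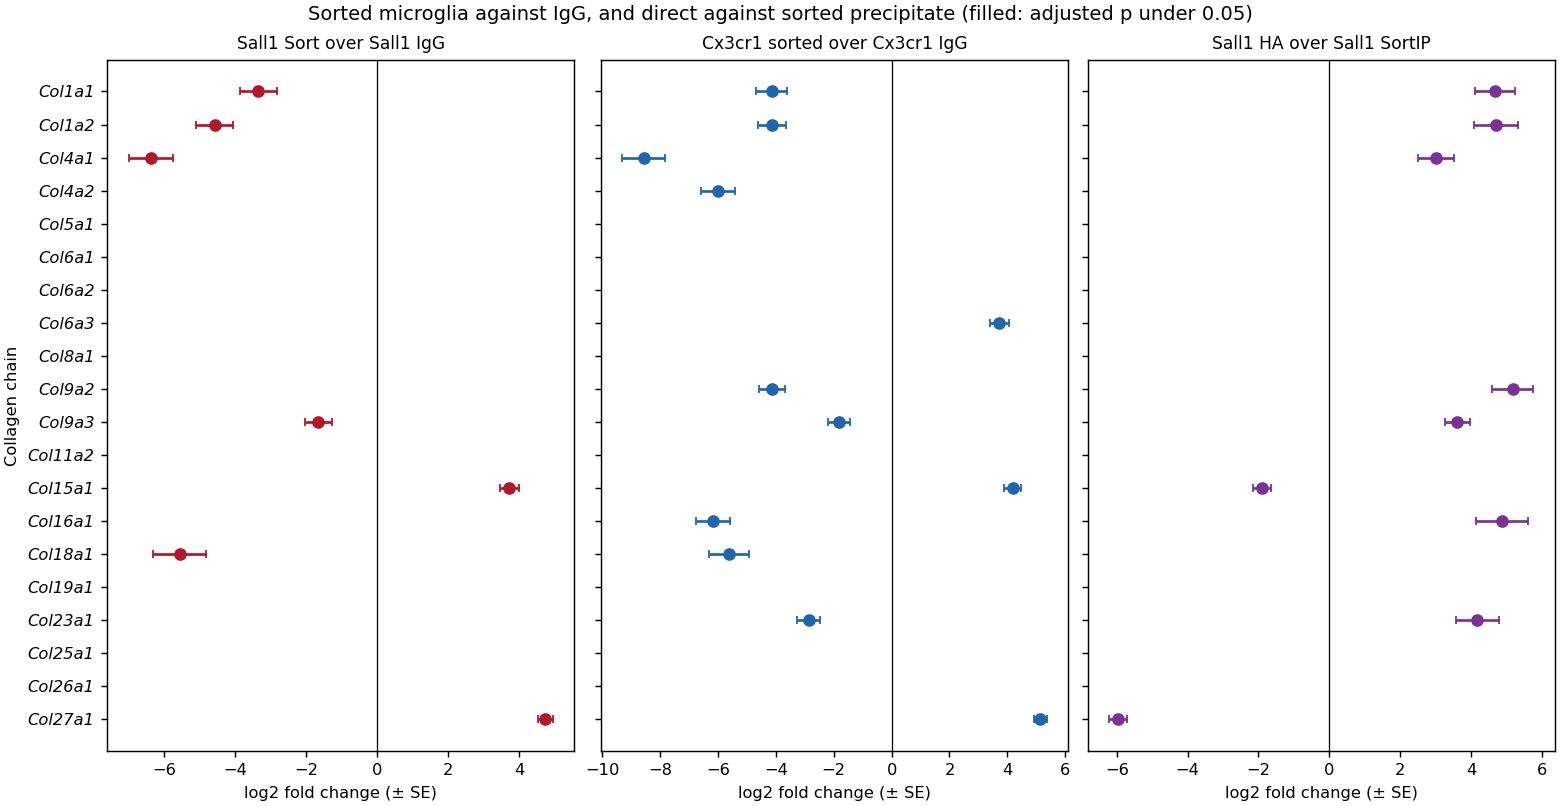
log2 fold change with SE (horizontal axes, own scale per panel) of each tested chain for Sall1 Sort over Sall1 IgG, Cx3cr1 sorted sums over Cx3cr1 IgG, and Sall1 HA over Sall1 SortIP. Every tested chain is called, and Col27a1 and Col15a1 are on the right in the sorted panels and on the left in the HA over SortIP panel.

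Collagen transcripts are long, with a median of 5755.5 bases (2690 to 11651) against 2918 over the genes tested, and length moved with the fold change. Across 11545 genes the Spearman correlation of fold change with transcript length was -0.53 in Sall1 HA against Sall1 IgG, and across 10021 genes it was -0.37 in Cx3cr1 HA against Cx3cr1 IgG (genes are not independent replicates). With each library adjusted for length and the mouse as a block, the calls in Sall1 HA became 9 higher and 1 lower. Of the 11545 genes tested, 3941 were called higher and 3570 lower in that setting. Col27a1 was then not called (-0.25 ± 0.34, adjusted p = 0.535), Col6a1 was not called (-0.65 ± 0.40, adjusted p = 0.158), Col4a1 was called higher (0.87 ± 0.25, adjusted p = 0.00364), Col16a1 was called higher (1.33 ± 0.33, adjusted p = 0.00109), and so was the fibrillar Col11a2 (1.28 ± 0.37, adjusted p = 0.00396). Col9a3, Col9a2, Col15a1, Col1a1, Col1a2, Col23a1 and Col19a1 kept both call and direction. In Cx3cr1 HA against Cx3cr1 IgG the adjusted value of Col27a1 was 3.28 ± 0.34, and Col4a1 was no longer called (-0.48 ± 0.56, adjusted p = 0.468). The difference between lines stayed called for Col27a1 (-3.75 ± 0.49), Col15a1 (-3.25 ± 0.53), Col1a1, Col1a2 and Col9a3, but not for Col9a2 (1.27 ± 0.53, adjusted p = 0.0629) or Col26a1 (0.0613).

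**Figure D5:**
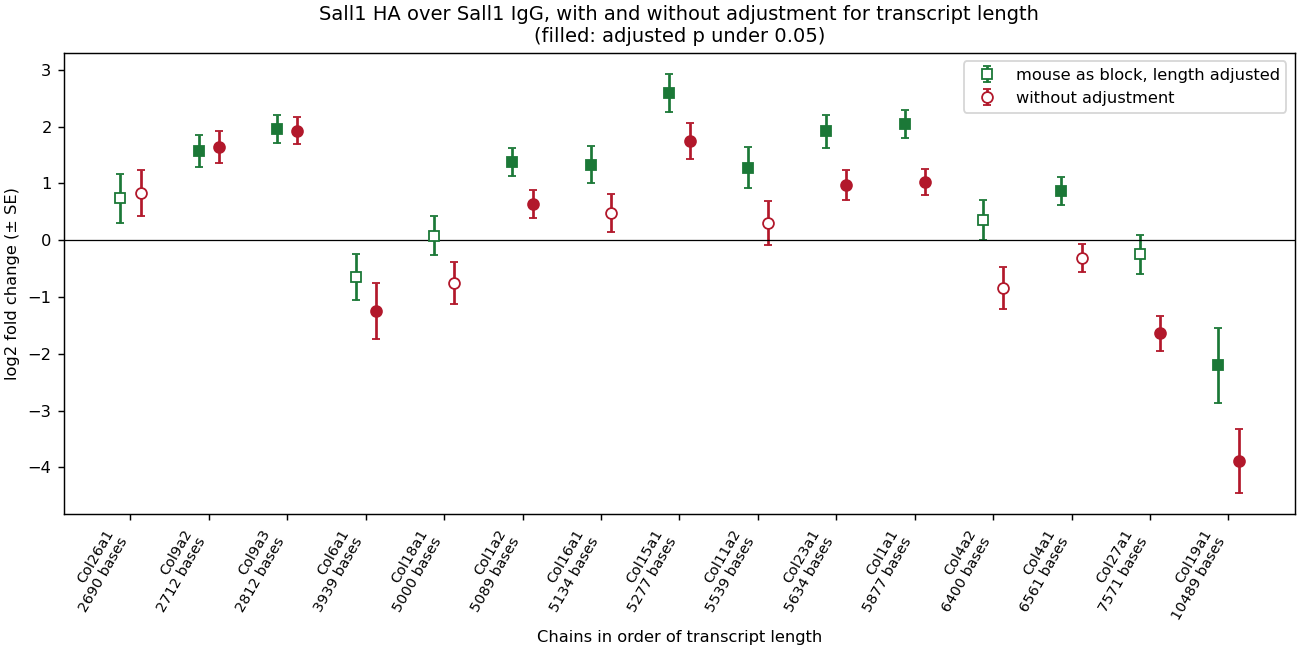
log2 fold change with SE (vertical axis) in Sall1 HA over Sall1 IgG for the 15 chains tested, in order of transcript length, with the length adjustment and mouse block (squares) and without (circles). Filled symbols are called. Adjusted values lie higher for the longer chains, Col27a1 at -0.25 instead of -1.64 and Col4a1 at 0.87 instead of -0.32.

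Genes that process collagen were measured alongside. The length adjustment and the left-out libraries were read for collagen chains only, so values of this and the following gene lists are without them. Of 31 enzymes and chaperones, 19 were tested in Sall1 HA against Sall1 IgG, with 12 called higher and 3 lower, and 15 in Cx3cr1 HA against Cx3cr1 IgG, with 7 higher and 3 lower. Over all genes 71.3% were called in the Sall1 comparison, 35.2% higher and 36.1% lower. In the Cx3cr1 comparison 64.5% were called, 28.6% higher and 36.0% lower. The list was near the shares called in either direction, but more of its calls were higher than lower in both comparisons. Its median fold changes were 1.18 in the Sall1 comparison and 0.60 in the Cx3cr1 comparison, against -0.03 and -0.28 over all genes. P4hb, the shared subunit of prolyl 4-hydroxylase, was higher in Sall1 HA (2.82 ± 0.16) and in Cx3cr1 HA (3.29 ± 0.18), as was Sparc, a matrix protein that binds collagen (2.51 ± 0.16 and 3.51 ± 0.24). Pxdn, the peroxidase that cross-links type IV collagen, was lower in both (-1.91 ± 0.29 and -4.74 ± 0.82), as was Bmp1, which trims procollagen (-0.94 ± 0.27 and -1.81 ± 0.34).

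The lines parted over the collagen chaperone Serpinh1 (HSP47). It had 82.6 ± 13.7 CPM in Sall1 HA against 20.5 ± 8.30 in Sall1 IgG, and 5.43 ± 1.46 CPM in Cx3cr1 HA against 14.4 ± 5.15 in Cx3cr1 IgG. The difference in HA over IgG was 3.32 ± 0.51 for Serpinh1 (adjusted p = 1.60e-05) and 2.83 ± 0.46 for Pcolce, which speeds procollagen trimming (adjusted p = 2.96e-05). The lysyl hydroxylases Plod3 and Plod1 differed the other way (-2.56 ± 0.27 and -1.77 ± 0.32). In sorted microglia Serpinh1 was near 0, at 0.730 ± 0.917 CPM in Sall1 SortIP and 0.681 ± 0.924 in Sall1 Sort, whereas Plod3 had 292 ± 72.4 CPM in Sall1 SortIP and 234 ± 19.6 in Sall1 Sort.

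Of 12 collagen receptors, Sall1 HA against Sall1 IgG gave 4 higher and 1 lower of 6 tested, and Cx3cr1 HA against Cx3cr1 IgG 4 higher and 1 lower of 5, beside 71.3% of all genes called in the Sall1 comparison and 64.5% in the Cx3cr1 comparison. The inhibitory leukocyte receptor Lair1 had 13.3 ± 2.55 CPM in Sall1 HA against 7.02 ± 0.901 in Sall1 IgG, and 131 ± 23.8 CPM in Cx3cr1 HA against 14.2 ± 1.17 in Cx3cr1 IgG. Adgrg1, which binds type III collagen, was higher in Sall1 HA (1.18 ± 0.15) and in Cx3cr1 HA (3.14 ± 0.19), as was the integrin subunit Itgb1 (1.91 ± 0.19 and 2.99 ± 0.24). The receptor kinase Ddr1 was higher in Sall1 HA (0.71 ± 0.17) and lower in Cx3cr1 HA (-2.42 ± 0.29), with a difference of 3.09 ± 0.33 (adjusted p = 6.54e-08). Ddr2, the related kinase, was lower in Sall1 HA (-2.16 ± 0.50).

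Of 10 collagen-degrading proteases and inhibitors, Sall1 HA against Sall1 IgG gave 5 higher and 0 lower of 6 tested, and Cx3cr1 HA against Cx3cr1 IgG 3 higher and 2 lower of 6 (all genes, 71.3% and 64.5% called). The metalloproteinase inhibitors Timp4 and Timp3 were higher in Sall1 HA (2.72 ± 0.20 and 1.12 ± 0.17) and lower in Cx3cr1 HA (-1.61 ± 0.30 and -1.98 ± 0.35), and Timp2 was higher in both (1.55 ± 0.16 and 3.12 ± 0.18). The gelatinase Mmp2 was higher in Cx3cr1 HA (3.58 ± 0.41). Mmp9, the other gelatinase, had 20.8 ± 11.1 CPM in Cx3cr1 HA against 3.08 ± 1.61 in Cx3cr1 IgG, and its difference between lines was -4.18 ± 0.74 (adjusted p = 9.67e-05).

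Of 15 laminin, nidogen and proteoglycan partners of type IV collagen, 11 were tested in Sall1 HA against Sall1 IgG, with 1 higher and 5 lower, and 6 in Cx3cr1 HA against Cx3cr1 IgG, with 0 higher and 5 lower. Among all genes 36.1% and 36.0% were called lower in these comparisons, and 71.3% and 64.5% in either direction. None of the values of these partners is adjusted for transcript length, with which fold changes fell in both comparisons. The partner called higher was the laminin chain Lama4 in Sall1 HA (0.98 ± 0.42), with an SE that is large beside the estimate. Whether this call holds without single libraries was not examined. Agrn, the proteoglycan agrin, was lower in Sall1 HA (-1.44 ± 0.20) and in Cx3cr1 HA (-2.07 ± 0.31), as was the laminin chain Lamb1 (-1.21 ± 0.28 and -3.70 ± 0.69). Nid1, which links laminin to type IV collagen, was lower in Sall1 HA (-2.99 ± 0.56). Its relative Nid2 was the 1 partner called higher in sorted cells, by 1.43 ± 0.33 in Sall1 Sort and 2.80 ± 0.33 in the Cx3cr1 sorted sums over their IgG precipitates. The Sall1 sorted sums lay below the Cx3cr1 sums for Nid2 (-1.20 ± 0.22, adjusted p = 0.00708), as they did for Col6a3.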

How the data were processed

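The authors deposited raw counts of reads over exons for 24411 genes in 32 libraries, without normalization per the file headers. The submitters' processing notes name bcl2fastq, HISAT 0.1.5, HOMER and mm9; strand setting and treatment of multiply mapped reads are not given in the sources used here. All 48 replicate pairs differed beyond counting noise (chi-square over degrees of freedom, 1.58 to 22.5). Floors of 3 counts cover counting error only, since PCR copies cannot be told apart.

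Counts were tested with edgeR 4.0.16 (R 4.3.3), a robust quasi-likelihood fit per comparison with TMM scaling, a minimum count of 10 and Benjamini-Hochberg adjustment over all genes tested; calls have an adjusted p under 0.05. The difference between lines is an interaction term. Fits were tested on simulated data. CPM and RPKM were computed from the counts and the table's transcript lengths. Alternatives were DESeq2 1.42.0, median-ratio or no scaling, no filter, all 8 groups in one fit, the mouse as a block, an adjustment for length (loess of log2 CPM, span 0.5, per library), the sorted Cx3cr1 libraries of 1 label only, and each library left out.

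The series' design gives each number within a line as a mouse, so numbers pair samples. Deviations of the 48 pairs of libraries of a mouse correlated at a median r of 0.04 (-0.11 to 0.23), against -0.01 for 144 pairs of other mice of the line. The collagen chains and the gene lists were chosen with earlier results of these data known. Named chains are the 2 with the highest mean CPM of each structural class (1 among the rest) and, per comparison, the 2 called higher and 2 lower with the smallest adjusted p; other lists name 2 called members per direction, and outside that rule Col26a1, Col6a2, Col9a1, Col10a1, Col6a6, Col4a3 to Col4a6, Col13a1, Col3a1, Col5a1, Col5a2, Col11a2 and Col14a1 were named after their values were seen.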

Additional observations from a re-analysis of the deposited data

Results flagged for a closer look

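In a group of 4 libraries a value was set apart when its gap to the nearest other value exceeded the 95% critical value of Dixon for 4 samples, as a share of the range of the group, which chance alone meets in about 5% of groups. The groups checked were those of a named chain with at least 40 counts and those of the summed share of all chains. Of these 60, 2 met it. Col19a1 had 2.43 CPM in Cx3cr1 IgG of mouse 2, against 7.72 to 8.68 CPM in the others. Col15a1 had 34.8 CPM in the Cx3cr1 library titled SortIP of mouse 3, against 57.6 to 59.7 CPM in the others.

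The difference in HA over IgG between the Sall1 and the Cx3cr1 line was called by edgeR's interaction test for 7 chains. It was -3.74 for Col27a1 and -3.20 for Col15a1, and 3.25 for Col1a2, 2.26 for Col9a3, 1.63 for Col1a1, 1.59 for Col9a2 and 5.96 for Col26a1 on the log2 scale. Col27a1 lay below IgG in all 4 Sall1 HA libraries and above IgG in all 4 Cx3cr1 HA libraries, whereas Col15a1 lay above IgG in both lines. With an adjustment for transcript length and the mouse as a block, the Sall1 value of Col27a1 was -0.25 instead of -1.64 and was not called (adjusted p = 0.535), while its difference between lines was -3.75. Col26a1 had 0 counts in Cx3cr1 HA, so the size of its difference depends on the prior count.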

How the results depend on the processing

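Of 82 fold changes of 16 named chains, the other settings gave 552 of 585 values with the same direction and side of the threshold, 10 weaker, 13 stronger and 10 reversed, and leaving out a library gave 687 of 725, 24 weaker, 11 stronger and 3 reversed. The replicate block (mouse) alone changed none of its 70 values.

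Counts of called chains changed most with the filter. Without it they were 16 (Sall1 HA against Sall1 IgG), 10 (Cx3cr1 HA against Cx3cr1 IgG), 22 (Sall1 HA against Sall1 SortIP), 31 (Sall1 Sort against IgG), 34 (Cx3cr1 sorted against IgG), 13 (Cx3cr1 HA against sorted) and 2 (sorted against sorted). Over all genes, in the same order, 4550 were called higher and 4907 lower of 17508, then 2902 and 4435 of 17123. For Sall1 HA against SortIP they were 6072 and 4762 of 16858, for Sall1 Sort 4588 and 6900 of 17556. For Cx3cr1 sorted against IgG they were 5078 and 6597 of 17586. For Cx3cr1 HA against sorted they were 4105 and 4575 of 16025, and between sorted cells 222 and 174 of 16124. With all 8 groups in one fit the counts of chains were 13 in Sall1 Sort against IgG, 9 in Cx3cr1 HA against sorted and 0 in Sall1 SortIP against Sort. They were 1 in Cx3cr1 HA against the sorted libraries titled SortIP and 0 in Sall1 SortIP against Sort with block and length adjustment. Apart from the last, more or fewer chains passed the filter than before. In one fit of 12142 genes, 4248 were called higher and 5291 lower in Sall1 Sort against IgG. The same fit gave 4073 and 4046 in Cx3cr1 HA against sorted, and 301 and 260 in Sall1 SortIP against Sort. Over all genes the libraries titled SortIP gave 2671 and 3072 of 8198, and block with length adjustment 755 and 542 of 8603.

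Leaving out each library gave 7 to 12 calls in Sall1 HA against IgG, 2 to 8 in Cx3cr1 HA against IgG, 5 to 8 for the difference between lines, 5 to 9 in Sall1 HA against Cx3cr1 HA, 0 to 0 between the IgG groups, 8 to 13 in Sall1 HA against SortIP, 8 to 12 in Sall1 Sort against IgG, 12 to 17 in Cx3cr1 sorted against IgG, 1 to 3 in Cx3cr1 HA against sorted, 0 to 1 in Sall1 SortIP against Sort and 0 to 1 between sorted cells. In the same order, calls over all genes were 7850 to 8391, 5257 to 6519, 3630 to 4283, 4059 to 4961 and 0 to 1. For the later comparisons they were 7998 to 9089, 8653 to 9192, 9052 to 10040, 5580 to 6924, 393 to 785 and 150 to 248. These fits tested 7381 to 12610 genes. Cx3cr1 HA against IgG had 8 calls of 16 chains tested without HA of mouse 2 or 4, and 2 of 2 without any single IgG library. Sall1 HA against Cx3cr1 HA had 5 of 5 without any single Sall1 HA library, Sall1 Sort against IgG 12 of 12 without any single Sort library, and Cx3cr1 HA against sorted 1 of 2 without sorted mouse 2, 3 or 4.

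Reversals with block and length adjustment were 0.87 (Col4a1), 0.36 (Col4a2) and 0.081 (Col18a1) in Sall1 HA against IgG, and 0.23 (Col1a1) and 0.16 (Col16a1) in Cx3cr1 HA against IgG. DESeq2 gave -0.78 (Col19a1) and -2.30 (Col25a1) for the difference between lines, and Col25a1 ranged from -0.15 (without Sall1 HA of mouse 17) to 1.82 over the left-out libraries. Col9a2 in Cx3cr1 HA against IgG, near 0, was -0.38 without scaling, -0.052 without the filter, -0.37 in one fit, and -0.22 to 0.27 over the left-out libraries. The cause was not tested. Depth limits the Cx3cr1 HA group, where all collagen counts sum to 272.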
